A study of Mus musculus with 24 samples.

Results

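The 9 genes described here encode chemokine ligands that blood monocytes make: Ccl2, Ccl3, Ccl4, Ccl5, Ccl6, Ccl9, Cxcl2, Cxcl10 and Cxcl16. They were chosen by name among the 53715 genes of the deposited table, without use of their values, and were followed through 24 RNA-seq libraries of sorted mouse blood monocytes. All mice were C57BL/6 and 8 to 10 weeks old. They were either wild type (wt) or carried a Notch2 mutation restricted to myeloid cells (N2ΔMy), in which a Cre recombinase under control of the Lyz2 gene cuts a loxP-flanked Notch2. Lyz2 is active in monocytes, macrophages and neutrophils, and the deletion it gives in blood monocytes is partial. Per the methods of the study, monocytes were sorted with the help of a GFP reporter in the Cx3cr1 gene, so that the wt mice too carried this allele. Mice received 50 mg per day of Aldara, a cream with 5% imiquimod (IMQ, an agonist of Toll-like receptor 7), or a Vaseline Sham cream on depilated skin for 4 to 5 days, and blood was taken on day 5. For the sequenced cells the methods of the study speak of controls without treatment, so whether these mice received the Sham cream is uncertain, and IMQ differences from the group called Sham here may be differences from mice without any cream. Cells that carried surface markers of T, NK and B cells, of neutrophils (Ly6G) or of erythroid cells were gated out before sorting. Classical Ly6Chi monocytes were sorted from Sham and IMQ mice of each genotype. Cells of the Ly6Clo gate, the gate of patrolling monocytes, were sorted from IMQ mice alone, which gave 6 groups of 4 libraries. Ly6Clo is used below as the name of this gate. There was no Ly6Clo group of Sham mice, so an effect of IMQ on Ly6Clo cells could not be assessed.

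Chemokines are small secreted proteins that draw leukocytes along a gradient by binding G protein-coupled receptors. The CC family (Ccl genes) acts mainly on monocytes, macrophages and lymphocytes, while the CXC family includes ligands of Cxcr2, which attract neutrophils, and interferon-induced ligands of Cxcr3, which attract activated T cells and natural killer cells. In monocytes the inducible chemokine genes are switched on by NF-kB, AP-1 and interferon-regulated factors downstream of Toll-like receptors, and several of their mRNAs are short-lived. Ccl6 and Ccl9 are set apart from this pattern: they are rodent chemokines that bind Ccr1 and are made by myeloid cells without stimulation.

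The libraries held sums of 13273508 to 14651770 normalized counts, and the size of the steps between low values gave 9525805 to 19758563 reads behind them. Notch2 was lower in every N2ΔMy library than in every wt library of the same subset and treatment, with log2 differences of -0.71 in Ly6Chi Sham, -0.87 in Ly6Chi IMQ and -0.72 in Ly6Clo IMQ cells (each past the limma test). The summed level of 4 Ly6Chi marker genes was 32085 to 54675 normalized counts in the 4 Ly6Chi groups, 404 to 1442 in wt Ly6Clo and 5927 to 8471 in N2ΔMy Ly6Clo libraries. The summed level of 6 Ly6Clo marker genes was 99611 to 120695 in wt Ly6Clo, 52427 to 71546 in N2ΔMy Ly6Clo and 11236 to 31280 in the Ly6Chi groups. Thus the sorted subsets carried the marker genes of their labels. By both sums the Ly6Clo libraries of N2ΔMy mice stood between wt Ly6Clo and Ly6Chi libraries. Ccr2 alone gave 4393 to 6281 of the Ly6Chi marker sum in N2ΔMy Ly6Clo libraries. By the summed level of 8 macrophage marker genes these libraries were not between the others but highest, at 12955 to 17383. That sum was 5557 to 7393 in wt Ly6Clo and 3962 to 9984 in Ly6Chi libraries. Of the other marker lists, the summed levels over all libraries were 21839 to 44377 for 3 pan-monocyte genes, 2016 to 12384 for 10 neutrophil genes (described with Cxcl10), 83 to 1514 for 6 dendritic cell genes, 0 to 1420 for 4 erythroid genes and 55 to 176 for 5 B cell genes. Replicates 1 and 2 of every group carry library numbers of one range and replicates 3 and 4 of a later range, and these are called the first and the second library series below. What the series stand for was not given in the sources used here.

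The members spanned a wide range of levels (per kilobase of gene length, since levels of different genes are compared). In wt Ly6Chi Sham monocytes Ccl6 led with 6454 ± 827 normalized counts per kb (mean ± SD, n = 4), followed by Ccl9 with 2470 ± 472. Cxcl10 came next with 73.8 ± 15.3, then Ccl2 with 41.7 ± 19.5, Cxcl16 with 21.0 ± 3.09 and Ccl3 with 20.9 ± 15.3. Ccl5 with 10.7 ± 7.90, Ccl4 with 7.58 ± 5.67 and Cxcl2 with 0.24 ± 0.48 normalized counts per kb closed the list. From Cxcl10 down to Ccl4 the libraries of each pair of neighbours in this order overlapped, so their order did not exceed the spread between libraries, while Ccl6, Ccl9 and Cxcl2 stood clear of their neighbours. Ccl6 and Ccl9 together made up 95.7 to 99.5% of the 9 members' summed level per kb over the 24 libraries. By mean level over all libraries Ccl6 ranked 106 and Ccl9 ranked 232 of all genes, while the other members ranked between 9129 (Cxcl10) and 12694 (Ccl5).

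**Figure D1:**
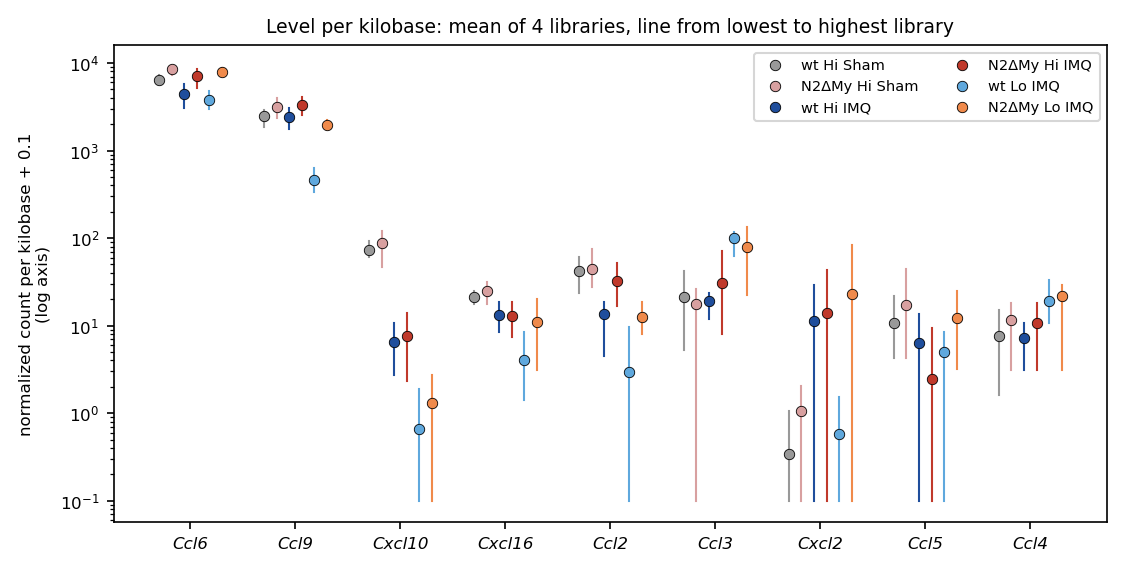
Level of each of the 9 chemokine ligand genes per kilobase of gene length plus 0.1 (log axis) in the 6 groups, where points are means of 4 libraries and lines run from the lowest to the highest library. Ccl6 and Ccl9 lie above all other members in every group, and Ccl3 comes next in both Ly6Clo groups where Cxcl10 comes next in both Sham groups.

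The order below the leading pair differed between the groups. In both Sham groups Cxcl10 was the third most abundant member. In wt Ly6Clo cells Ccl3 took that place with 99.2 ± 25.2 normalized counts per kb, and its libraries stood clear of those of Ccl4, the next gene, with 18.9 ± 9.94. In the same cells Cxcl10 was down to 0.56 ± 0.84 normalized counts per kb. In the IMQ-treated Ly6Chi cells of either genotype, all neighbours in the order from the third to the ninth place overlapped.

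A gene passed the filter on low values when it reached 50 normalized counts in at least 1 library, and 11230 genes did. Of the 9 members 7 were among them. Ccl4 (highest value 22) and Ccl5 (highest value 42) did not pass and were not tested. Over the 6 groups, 5 of the 7 tested members passed the limma F-test with its limit of 0.01 on the adjusted p: Ccl9 (adjusted p = 5.31e-10), Cxcl10 (1.78e-09), Ccl6 (1.18e-05), Ccl2 (2.53e-05) and Cxcl16 (0.000879). Ccl3 (adjusted p = 0.0206) and Cxcl2 (0.488) did not pass. With the replicate block 6 of the 7 passed, Ccl3 as well. Of all genes tested, 43.0% passed this F-test. In the comparisons of 2 groups a gene was called when its adjusted p over all genes tested did not exceed 0.05, with a log2 difference of at least 0.6 in size, on the log2(value + 1) scale, which understates the change of low genes.

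**Figure D2:**
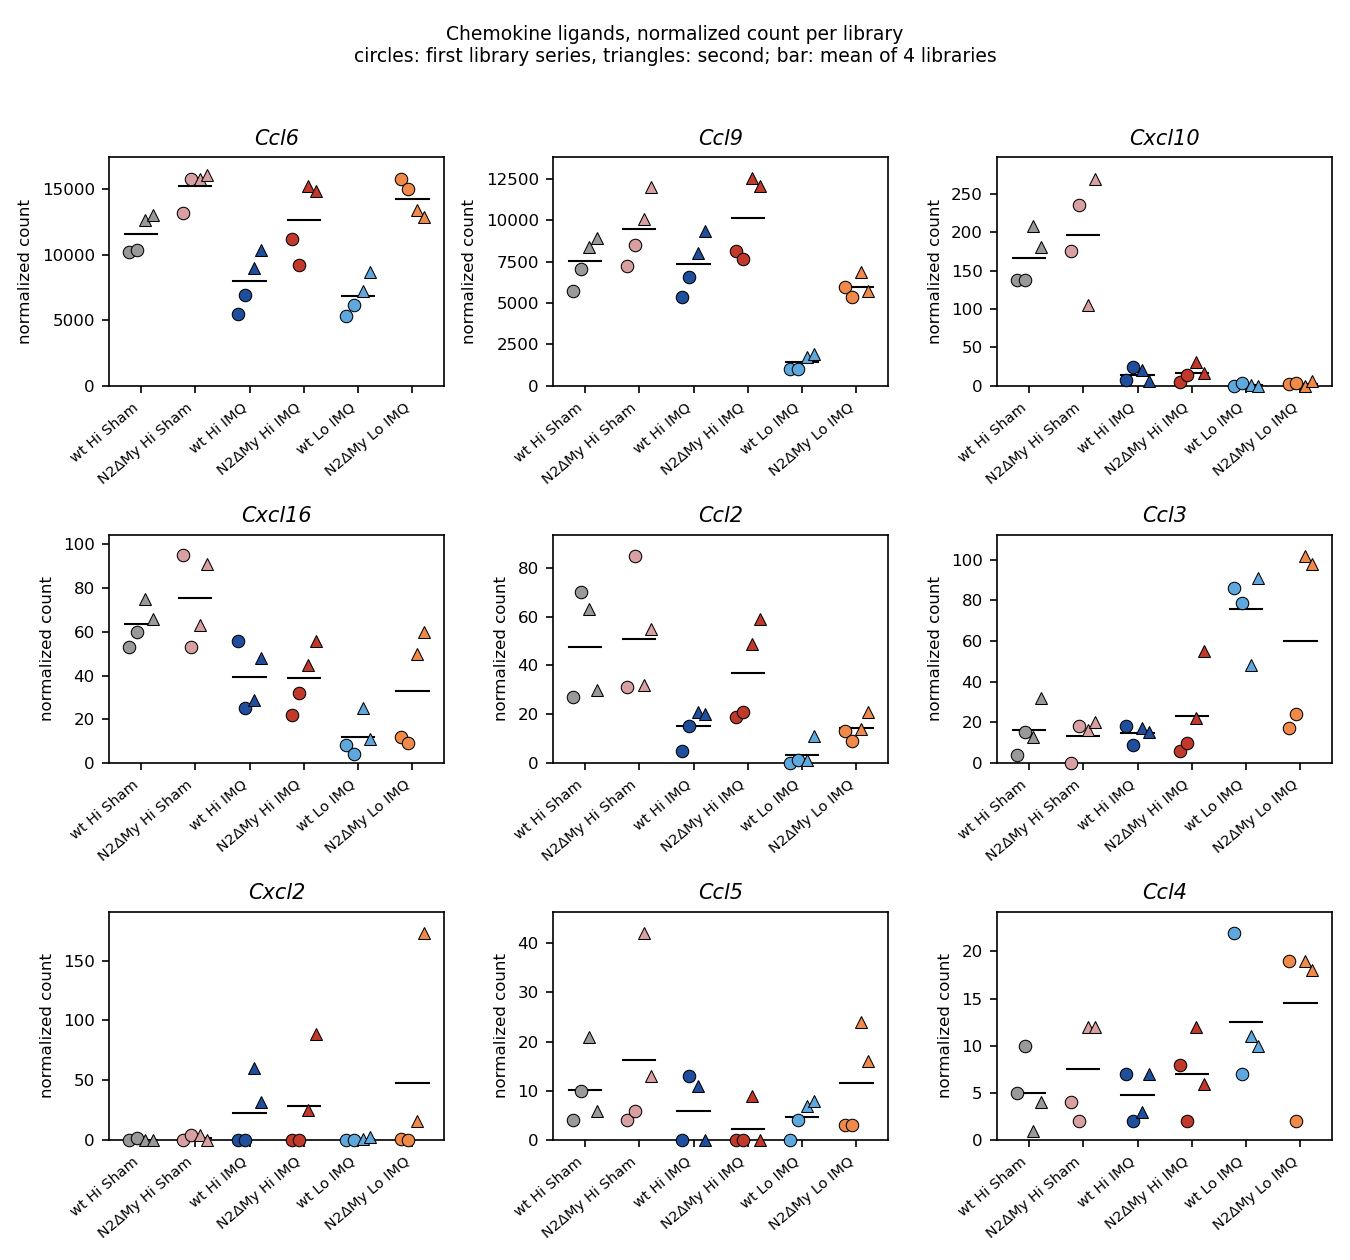
Normalized counts of the 9 members in each of the 24 libraries (linear axes from 0, which differ between genes), by group, with circles for the first and triangles for the second library series and a bar at the mean of 4 libraries. Cxcl10 is high in all 8 Sham libraries, Ccl9 is low in the 4 wt Ly6Clo libraries, and Cxcl2 is above 5 normalized counts only in libraries of the second series.

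Ccl6 and Ccl9, both ligands of Ccr1, differed between genotypes in the Ly6Clo subset. The genes are neighbours on chromosome 11 (GRCm38), with Ccl9 (ENSMUSG00000019122.8) at 83572919 to 83578636 and Ccl6 (ENSMUSG00000018927.3) at 83587882 to 83593087, both on the minus strand and 9245 bases apart. Their promoters are shown because both genes were higher in N2ΔMy Ly6Clo cells, while Ccl9 but not Ccl6 was called between the subsets. The sequences are from RefSeq (GRCm38.p6), reach from 250 bases before to 50 bases after the gene start and cover chr11:83578587-83578886 for Ccl9 and chr11:83593038-83593337 for Ccl6, both on the minus strand. Capitals mark matches on either strand to the NF-kB motif, the ISRE (interferon-stimulated response element), AP-1, RBPJ (the DNA-binding partner of Notch) and the TATA box.
Ccl9: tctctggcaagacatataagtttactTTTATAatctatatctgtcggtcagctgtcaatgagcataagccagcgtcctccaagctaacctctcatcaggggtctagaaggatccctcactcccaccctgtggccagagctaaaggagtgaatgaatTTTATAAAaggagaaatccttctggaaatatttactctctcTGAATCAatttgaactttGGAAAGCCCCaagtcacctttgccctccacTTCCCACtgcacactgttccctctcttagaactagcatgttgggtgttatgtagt
Ccl6: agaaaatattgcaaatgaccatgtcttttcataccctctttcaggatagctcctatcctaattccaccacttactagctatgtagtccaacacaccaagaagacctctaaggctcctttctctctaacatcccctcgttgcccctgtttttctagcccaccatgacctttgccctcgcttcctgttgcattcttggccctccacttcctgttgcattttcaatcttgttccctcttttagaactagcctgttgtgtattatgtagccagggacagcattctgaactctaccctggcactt
The Ccl9 window held 6 matches to 4 different motifs: an RBPJ match (GTGGGAA) 5 bases before the start, an NF-kB match at 35 (both on the minus strand of the gene), an AP-1 match (TGANTCA) at 53 and TATA box matches (TATAAA) at 92, 94 and 224, of which the first pair overlap on opposite strands. The Ccl6 window held 0 matches. Over 32851 promoter windows of this length, 6.38% held the RBPJ letters, 5.56% NF-kB, 3.44% ISRE, 7.81% AP-1 and 13.6% TATA. The windows of Ccl6 and Ccl9 shared a stretch of 40 bases with 36 identical (90.0%). Relative to the gene start it lay at -25 to 14 in Ccl6 and, wholly after the start, at 9 to 48 in Ccl9. It was the longest among the 5 members with a promoter window. The letters of the remaining pairs matched best over 8 to 12 bases. These matches are descriptions of letters and not of binding.

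Ccl9 measured 1023, 1010, 1720 and 1899 normalized counts in the wt Ly6Clo IMQ libraries (replicates 1 to 4). In N2ΔMy Ly6Clo IMQ cells it measured 5965, 5354, 6855 and 5735. Every N2ΔMy library was above every wt library, and the difference was 4.39-fold (log2 difference 2.13, SE 0.20, adjusted p = 0.0003, limma). Ccl6 measured 5296, 6159, 7269 and 8671 normalized counts in wt Ly6Clo and 15835, 15015, 13396 and 12908 in N2ΔMy Ly6Clo libraries. Here too the groups did not overlap, and Ccl6 was higher in N2ΔMy cells (log2 difference 1.08, SE 0.15, adjusted p = 0.0019). These were the 2 members called of the 7 tested, in a comparison in which 4.78% of all genes tested were called (3.12% higher in N2ΔMy cells) and 6.62% were higher in every N2ΔMy than in every wt library. With the replicate block 3 of 7 members, Ccl2 as well, and 939 in place of 537 genes were called. Ccl9 and Ccl6 were called without any single library too, with a log2 difference of at least 1.99 for Ccl9 and 0.96 for Ccl6.

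The Ly6Chi subset gave smaller genotype differences for the same genes. In Sham mice Ccl6 measured 10251, 10360, 12682 and 13045 normalized counts in wt and 13233, 15832, 15815 and 16083 in N2ΔMy Ly6Chi cells. Every N2ΔMy library was above every wt library, as for 1.42% of all genes tested in this comparison, but the log2 difference of 0.40 (SE 0.11) did not pass (adjusted p = 0.879). In IMQ mice Ccl6 measured 5519, 6973, 9034 and 10400 normalized counts in wt and 11200, 9228, 15292 and 14884 in N2ΔMy Ly6Chi cells. These libraries overlapped, and the log2 difference of 0.68 (SE 0.22, adjusted p = 0.635) passed with the replicate number as a block (adjusted p = 0.0082), when 54 in place of 3 genes were called, and with the library series as a covariate (0.0104). Ccl9 differed between genotypes by 0.33 in Sham (adjusted p = 0.937) and by 0.46 in IMQ Ly6Chi cells (adjusted p = 0.823, log2 differences), and its libraries overlapped in both. In Ly6Chi cells 0 of 7 members were called between genotypes by limma under either treatment, where 0.0178% (Sham) and 0.0267% (IMQ) of all genes tested were called, and 1 member (Sham) and 2 members (IMQ) had an unadjusted p under 0.05.

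Between the subsets the genotype difference of Ccl9 was larger in Ly6Clo than in Ly6Chi cells of IMQ mice, with an interaction of 1.67 on the log2 scale (SE 0.31, adjusted p = 0.0125). It was the 1 member called of 7, against 1.03% of all genes tested (116 genes, and 271 with the replicate block). The call was lost when no filter on low values was applied (adjusted p = 0.0883). For Ccl6 the interaction of 0.40 (SE 0.28) did not pass (adjusted p = 0.898), so that its genotype difference in Ly6Clo cells was not shown to exceed that in Ly6Chi cells. The interaction of genotype and treatment in Ly6Chi cells was called for 0 members and for 0 genes by limma, which is 0% of the genes tested. In that test 177 genes and 0 members had an unadjusted p under 0.05.

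Ccl9 also separated the subsets. In Ly6Chi cells of IMQ mice it measured 5387, 6559, 8006 and 9366 normalized counts in wt and 8136, 7666, 12569 and 12097 in N2ΔMy cells. It was 5.29-fold lower in wt Ly6Clo than in wt Ly6Chi cells (log2 difference -2.40, SE 0.23) and 1.66-fold lower in N2ΔMy Ly6Clo than in N2ΔMy Ly6Chi cells (-0.73, SE 0.17, adjusted p = 0.0088). The groups did not overlap in either genotype, and 17.1% (wt) and 13.0% (N2ΔMy) of all genes tested were likewise lower in every Ly6Clo library. In N2ΔMy cells the call was lost with no filter on low values (adjusted p = 0.0846) and, by the fold limit, within the first library series (-0.48). For Ccl6 the log2 difference between the subsets was -0.20 in wt (adjusted p = 0.475) and 0.20 in N2ΔMy cells, with overlapping libraries in both. The ratio of Ccl9 to Ccl6, both per kb, was 0.0967 to 0.139 in wt Ly6Clo and 0.210 to 0.302 in N2ΔMy Ly6Clo libraries, against 0.522 to 0.575 in wt and 0.428 to 0.490 in N2ΔMy Ly6Chi libraries of IMQ mice. In Sham mice this ratio was 0.329 to 0.404 in wt and 0.317 to 0.441 in N2ΔMy Ly6Chi cells.

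Under IMQ, Ccl6 in wt Ly6Chi cells went from a mean of 11584.5 ± 1485 to 7981.5 ± 2163 normalized counts (SD, n = 4), with a log2 difference of -0.57 (SE 0.18) and an adjusted p of 0.0563. The adjusted p was 0.0006 with the replicate number as a block, with the difference still under the fold limit. Without replicate 4 of the wt Ly6Chi IMQ group the difference was -0.71 and passed (adjusted p = 0.0221). In N2ΔMy Ly6Chi cells Ccl6 was at 15240.75 ± 1344 in Sham and 12651 ± 2932 in IMQ mice, a log2 difference of -0.29 (adjusted p = 0.277). Ccl9 had means of 7522 ± 1437 in Sham and 7329.5 ± 1729 in IMQ wt Ly6Chi cells, a log2 difference of -0.05. Ccl9 was higher in the second than in the first library series in 6 of 6 groups, as were 16.3% of the genes tested, and Ccl6 in 5 of 6 groups.

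Macrophage and Ly6Chi marker genes also differed between the genotypes in Ly6Clo cells. The summed level of the 8 macrophage marker genes was 5557 to 7393 normalized counts in wt and 12955 to 17383 in N2ΔMy Ly6Clo libraries, and that of the 4 Ly6Chi marker genes was 404 to 1442 and 5927 to 8471, with none of these markers at 0 in all libraries of a group. Among the macrophage markers, C1qb (a subunit of the complement component C1q) had means of 71.8 and 1023 normalized counts and Mertk (a receptor for apoptotic cells) had 13.5 and 250.5 in wt and N2ΔMy Ly6Clo cells. Over the 24 libraries Ccl9 had a Pearson r of 0.92 with the Ly6Chi marker sum and 0.14 with the macrophage marker sum. Ccl6 had an r of 0.48 with the Ly6Chi and 0.69 with the macrophage marker sum. With the sum of 12 immediate early genes, described with Cxcl2, the r of Ccl6 was 0.68. These values are of log2 levels and are a description, since libraries of a group share subset and treatment. The genes most like Ccl9 were Mcub (r = 0.962), Nrp1 (0.960) and Capg (0.958), and those most like Ccl6 were Lpl (0.892), Lyz1 (0.890) and Maf (0.876). The part of these marker genes in the genotype difference was not tested, and in sorted populations fewer cells that express a gene and less RNA of it per cell cannot be told apart.

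Cxcl10, an interferon-induced attractant of activated T cells through Cxcr3, was the member most reduced under IMQ. Its promoter is shown first, and that of Cxcl2 with it, because both held matches to NF-kB letters while the genes moved in unlike ways. Cxcl10 (ENSMUSG00000034855.13) lies at 92346638 to 92348889 on the minus strand of chromosome 5, and the RefSeq windows (GRCm38.p6) are chr5:92348840-92349139 on the minus strand for Cxcl10 and chr5:90903649-90903948 on the plus strand for Cxcl2. Capitals mark the same 5 motifs as above.
Cxcl10: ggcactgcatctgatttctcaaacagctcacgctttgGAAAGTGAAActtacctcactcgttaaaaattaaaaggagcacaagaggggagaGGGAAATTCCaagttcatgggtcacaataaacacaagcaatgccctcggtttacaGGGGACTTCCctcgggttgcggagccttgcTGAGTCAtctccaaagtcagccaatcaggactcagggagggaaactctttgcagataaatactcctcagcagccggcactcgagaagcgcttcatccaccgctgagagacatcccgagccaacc
Cxcl2: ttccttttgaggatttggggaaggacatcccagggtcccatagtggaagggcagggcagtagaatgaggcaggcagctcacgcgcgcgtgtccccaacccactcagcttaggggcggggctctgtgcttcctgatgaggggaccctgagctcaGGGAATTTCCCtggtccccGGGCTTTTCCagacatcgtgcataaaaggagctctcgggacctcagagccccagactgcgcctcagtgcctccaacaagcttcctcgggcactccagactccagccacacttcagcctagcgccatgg
Before the Cxcl10 start lay an ISRE match at 213 bases, NF-kB matches at 159 and 104 bases and an AP-1 match at 74 bases. The Cxcl2 window held NF-kB letters at 97 bases, where the other strand also matched 1 base further on at 96, and at 78 bases. In the window of Ccl3, a ligand of Ccr1, 0 matches were found.

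In Sham Ly6Chi cells Cxcl10 measured 138, 138, 208 and 181 normalized counts in wt and 175, 235, 105 and 270 in N2ΔMy mice. After IMQ it measured 8, 24, 20 and 6 in wt and 5, 14, 31 and 17 in N2ΔMy Ly6Chi cells. Every IMQ library lay below every Sham library in both genotypes, as for 11.5% (wt) and 9.64% (N2ΔMy) of all genes tested. The reduction was 12.2-fold in wt (log2 difference -3.61, SE 0.42, adjusted p = 0.0004) and 12.3-fold in N2ΔMy cells (-3.62, SE 0.49, adjusted p = 0.0011). Cxcl10 was the 1 member called of 7 in each genotype, where 9.49% (wt) and 8.70% (N2ΔMy) of all genes tested were called. With the replicate block 2 of 7 members were called in wt, the other being Ccl2. Cxcl10 passed the filter through the Sham groups, where it was high, and its call held without a filter too. It was called in both genotypes under each of the 12 alternative settings and without any single library.

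Some neutrophil marker genes rose in the same comparisons. Their summed level over 10 genes was 6617 to 7154 normalized counts in wt Sham and 7269 to 12384 in wt IMQ Ly6Chi libraries, and 6079 to 6592 and 8203 to 12249 in N2ΔMy libraries. Of 5 tested, 3 rose and 0 fell under IMQ in each genotype, where 4.43% (wt) and 4.15% (N2ΔMy) of all genes tested were called higher. S100a8 and S100a9 are calcium-binding proteins of neutrophils that Ly6Chi monocytes also make. They had means of 3.75 and 0 in wt Sham and of 1323 and 863 in wt IMQ cells. They passed the filter through IMQ libraries, where they were high, so the count of 3 cannot be weighed against these shares. Mmp8, a collagenase, had means of 1067 in wt Sham and 2453 in wt IMQ cells. Csf3r, a growth factor receptor and the most abundant gene of the list in Sham cells, was at 5524 to 6278 in wt Sham and lower, at 3787 to 4860, in wt IMQ libraries, with means of 5209 and 4272 in N2ΔMy cells. It was not called: its log2 difference of -0.45 in wt (adjusted p = 0.0071) was under the fold limit, and that of -0.29 in N2ΔMy cells did not pass (adjusted p = 0.0645). Ly6g was at 0 to 1, Camp at 0 to 8 and Cxcr2 at 0 to 19 normalized counts over all libraries.

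Dendritic cell and macrophage markers also moved under IMQ. The summed level of 6 dendritic cell genes was 531 to 841 normalized counts in wt Sham and 267 to 487 in wt IMQ Ly6Chi libraries, and 589 to 1010 and 295 to 408 in N2ΔMy libraries, and 2 of 4 tested (Flt3 and Clec9a) were called lower and 0 higher in each genotype. The sum of 8 macrophage genes was 7331 to 8810 in wt Sham and 3962 to 5496 in wt IMQ libraries, where 2 of 8 (Siglec1 and Fcgr1) were called lower and 0 higher. In N2ΔMy cells it was 7935 to 9984 and 5861 to 8599, with 2 called lower (Siglec1 and Fcgr1) and 2 higher (Mertk and Adgre1). Of all genes tested in these comparisons, 5.07% (wt) and 4.55% (N2ΔMy) were called lower and 4.43% and 4.15% higher. The part of neutrophils, dendritic cells and macrophages in the IMQ differences of the members was not tested.

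In Ly6Clo cells of IMQ mice Cxcl10 measured 0, 4, 1 and 0 normalized counts in wt and 2, 3, 0 and 6 in N2ΔMy mice, values of a few reads at most, since 1 read was worth 0.73 to 1.41 normalized counts. The wt Ly6Clo libraries lay below all wt Ly6Chi IMQ libraries, with a log2 difference of -2.92 (SE 0.87, adjusted p = 0.0227). This call was lost without replicate 2 or 3 of wt Ly6Chi IMQ (adjusted p = 0.0874 and 0.0699) or replicate 1 of wt Ly6Clo (0.0502), and within the first and the second library series (0.0649 and 0.0903). In N2ΔMy mice the difference of -2.32 (SE 0.85) did not pass (adjusted p = 0.0704). Cxcl10 shared 2.47% of its read-length windows with Art3, a gene on the opposite strand that measured 336 to 419 normalized counts in wt Ly6Clo libraries, where Cxcl10 was at 0 to 4.

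**Figure D3:**
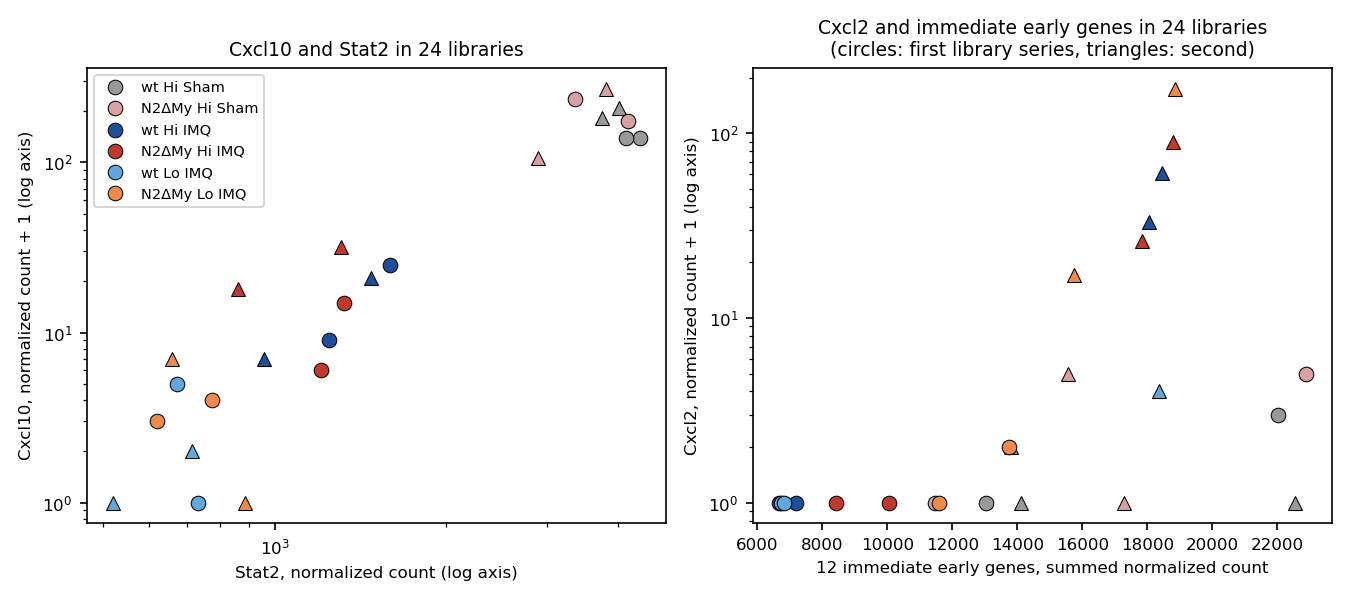
Left, Cxcl10 against Stat2, and right, Cxcl2 against the summed level of 12 immediate early genes, in normalized counts (1 added to the chemokine values, log axes except for the sum), with 1 symbol per library, circles for the first and triangles for the second library series. The 8 Sham libraries hold 105 to 270 normalized counts of Cxcl10 and the 16 IMQ libraries 0 to 31, while Cxcl2 reaches 16 or more in 6 libraries, all of the second series and of IMQ mice.

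Regulators on the NF-kB and interferon list were measured beside Cxcl10. Of 18 tested, 5 fell and 0 rose under IMQ in Ly6Chi cells of each genotype, where 5.07% (wt) and 4.55% (N2ΔMy) of all genes tested were called lower, with a median log2 difference of -0.37 in wt and -0.39 in N2ΔMy cells against 0.01 over all genes tested in both. Irf7, a transcription factor of the interferon response, went from 5730 to 6588 normalized counts in wt Sham libraries to 1186 to 2461 in wt IMQ libraries (log2 difference -1.85, adjusted p = 0.0005). Stat2 (-1.65), which carries signals of the interferon receptors, was lower too in wt, as were Nfkbie (-1.12) and Tnfaip3 (-1.06), inhibitors of NF-kB signalling. In N2ΔMy cells the log2 differences were -1.93 for Irf7, -1.61 for Stat2, -1.16 for Nfkbie and -1.09 for Tnfaip3, which were all called. Nfkbia, the classical NF-kB inhibitor and target gene, had means of 1480.75 normalized counts in wt Sham and 1179 in wt IMQ Ly6Chi cells and did not pass (adjusted p = 0.209). Between genotypes 0 of the 18 were called by limma, where 4.78% (Ly6Clo), 0.0267% (Ly6Chi IMQ) and 0.0178% (Ly6Chi Sham) of all genes tested were called. The genes most like Cxcl10 over the 24 libraries were RP24-499A8.3 (r = 0.972), Aplnr (0.971) and Oas1a (0.968), and Cxcl10 had an r of 0.94 with Stat2, 0.87 with Irf7 and 0.37 with Zfp36 (log2 values, as a description). Cxcl9, the related Cxcr3 ligand, stayed under the filter, with means of 26.25 and 34.0 normalized counts in wt and N2ΔMy Sham, 22.5 and 24.5 in IMQ Ly6Chi and 0.25 and 5.0 in Ly6Clo cells.

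Cxcl16 is made as a membrane-bound ligand of Cxcr6 that is shed from the cell surface by Adam10. It measured 53, 60, 75 and 66 normalized counts in wt Sham, 56, 25, 29 and 48 in wt IMQ Ly6Chi and 8, 4, 25 and 11 in wt Ly6Clo cells. The Ly6Clo libraries were lower than the Ly6Chi libraries except that 25 occurred in both groups. The log2 difference between the subsets was -1.82 (SE 0.54, adjusted p = 0.0220). The call was lost without replicate 1 or 4 of wt Ly6Chi IMQ (adjusted p = 0.0662 and 0.0598) or replicate 1 of wt Ly6Clo (0.0516), with no filter on low values (0.0954) and within the second library series (0.239). In N2ΔMy mice Cxcl16 measured 95, 53, 63 and 91 in Sham, 22, 32, 45 and 56 in IMQ Ly6Chi and 12, 9, 50 and 60 in Ly6Clo cells. Its subset difference there was -0.57 (adjusted p = 0.536), and both Ly6Clo libraries of the second series exceeded those of the first. Under IMQ the log2 difference in Ly6Chi cells was -0.74 in wt (SE 0.31, adjusted p = 0.137) and -0.98 in N2ΔMy mice (SE 0.34, adjusted p = 0.0831). Closest to Cxcl16 in pattern were Ankrd13b (r = 0.895), H2-DMa (0.891) and Plcb3 (0.883). Cxcl16 shared 15.4% of its read-length windows with Zmynd15 on the opposite strand, which was at 0 to 7 normalized counts.

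Among the enzymes that cut chemokines, Adam10 (means of 2342 to 3535 normalized counts over the groups) and Adam17 (2527 to 3198), a related sheddase, were not called in any comparison. Dpp4, which trims the first residues of Cxcl10 and other chemokines, fell under IMQ in Ly6Chi cells of wt (log2 difference -1.05, adjusted p = 0.0004) and N2ΔMy mice (-1.47, adjusted p = 0.0001). It was higher in Ly6Clo than in Ly6Chi cells of IMQ mice, by 1.06 in wt and 1.11 in N2ΔMy mice on the log2 scale. Thus 1 of 3 enzymes was called in each of these comparisons, where 9.49%, 8.70%, 24.6% and 17.4% of all genes tested were called, and 0 of 3 between genotypes, against 4.78% in Ly6Clo and 0.0178% (Sham) and 0.0267% (IMQ) in Ly6Chi cells.

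Ccl2, the main ligand of Ccr2 and attractant of Ly6Chi monocytes, was low in all groups. It measured 27, 70, 63 and 30 normalized counts in wt Sham, 5, 15, 21 and 20 in wt IMQ Ly6Chi and 0, 1, 1 and 11 in wt Ly6Clo cells. The IMQ libraries lay below all Sham libraries, as for 11.5% of all genes tested in this comparison. The log2 difference of -1.62 (SE 0.50) had an adjusted p of 0.0526, and it passed with the replicate number as a block (adjusted p = 0.0101). In N2ΔMy mice Ccl2 measured 31, 85, 32 and 55 in Sham and 19, 21, 49 and 59 in IMQ Ly6Chi cells. These libraries overlapped, with a log2 difference of -0.49 (adjusted p = 0.556).

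From Ly6Chi to Ly6Clo cells Ccl2 differed by -2.46 in wt (SE 0.90, adjusted p = 0.0536) and by -1.21 in N2ΔMy mice (SE 0.48, adjusted p = 0.0910) on the log2 scale. Both passed with the replicate number as a block (adjusted p = 0.0096 and 0.0389), and the wt difference also passed without replicate 4 of wt Ly6Clo (-3.19, adjusted p = 0.0170), the library with 11 normalized counts, or without replicate 1 of wt Ly6Chi IMQ (-2.89, adjusted p = 0.0420). In N2ΔMy Ly6Clo cells Ccl2 measured 13, 9, 14 and 21 normalized counts. Against the wt Ly6Clo libraries the log2 difference was 2.48 (SE 0.80, adjusted p = 0.108), which passed with the block (0.0259) and without replicate 4 of wt Ly6Clo (3.21, adjusted p = 0.0332). In Ly6Chi IMQ cells the genotype difference was 1.2 (adjusted p = 0.809) and the libraries overlapped. Most like Ccl2 over the libraries were Vimp (r = 0.925), Nceh1 (0.913) and Casp8 (0.894). Over the 24 libraries Ccl2 had an r of 0.877 with Ccl9, 0.752 with Ccl6 and 0.740 with Cxcl10.

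Ccl3, Ccl4 and Ccl5 are inflammatory CC chemokines, of which Ccl3 and Ccl5 bind Ccr1. Ccl3 was the 1 member called higher in Ly6Clo than in Ly6Chi cells, in wt mice. It measured 86, 79, 48 and 91 normalized counts in wt Ly6Clo against 18, 9, 17 and 15 in wt Ly6Chi IMQ cells. The groups did not overlap (18.3% of all genes tested were higher in every Ly6Clo library), and Ccl3 was 4.89-fold higher in Ly6Clo cells (log2 difference 2.29, SE 0.34, adjusted p = 0.0004). It remained called without any single library. In N2ΔMy mice Ccl3 measured 17, 24, 102 and 98 in Ly6Clo and 6, 10, 22 and 55 in Ly6Chi IMQ cells. These libraries overlapped, and the log2 difference of 1.38 (SE 0.75, adjusted p = 0.207) passed with the replicate number as a block (0.0142).

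With Ccl3 higher and Ccl9, Cxcl10 and Cxcl16 lower, 4 of 7 members were called between the subsets of wt IMQ mice, where 24.6% of all genes tested were called (11.9% higher and 12.7% lower in Ly6Clo cells). In N2ΔMy mice 1 of 7 members (Ccl9) was called, against 17.4% of all genes tested, and 3 of 7 with the replicate block. The median log2 difference of the 7 members between the subsets was -1.99 in wt and -0.57 in N2ΔMy mice, against -0.01 over all genes tested in both. The wt median is the value of Cxcl2, which was not called (adjusted p = 0.336) and differed by -3.99 within the second and by 0 within the first library series.

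Within Ly6Clo cells the genotype difference of Ccl3 was -0.69 on the log2 scale (adjusted p = 0.572), but it ran in opposite directions in the library series. In the first series the N2ΔMy libraries (17 and 24) were below the wt libraries (86 and 79), with a difference of -1.98 (adjusted p = 0.0298 within that series). In the second series the N2ΔMy libraries (102 and 98) were above the wt libraries (48 and 91), with a difference of 0.59. In Sham Ly6Chi cells Ccl3 was at 4, 15, 13 and 32 normalized counts in wt and 0, 18, 16 and 20 in N2ΔMy mice. Closest to Ccl3 in pattern were Gtf2a2 (r = 0.855), Midn (0.826) and Josd1 (0.825).

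Ccl4, which lies 13228 bases from Ccl3 on chromosome 11, measured 22, 7, 11 and 10 normalized counts in wt Ly6Clo and 7, 2, 3 and 7 in wt Ly6Chi IMQ cells, with the value 7 in both groups. In N2ΔMy mice it measured 19, 2, 19 and 18 in Ly6Clo and 8, 2, 12 and 6 in Ly6Chi IMQ cells. The exact permutation test over the 70 splits of 8 libraries gave two-sided p = 0.0857 in wt and 0.400 in N2ΔMy mice, where the smallest possible p is 0.0286. This test did not pair libraries by replicate number. Compared by number, every wt Ly6Clo library was above its Ly6Chi library, as in N2ΔMy mice except for replicate 2, with the value 2 in both. Ccl5, a chemokine known mainly from T and natural killer cells, was at 0 to 42 normalized counts. Its highest values, 42 and 24, were in replicate 3 of N2ΔMy Sham and replicate 3 of N2ΔMy Ly6Clo cells. The summed level of 12 T and NK cell marker genes was 0 to 127 over all libraries, and it was highest, at 127 and 93, in these 2 libraries. In the N2ΔMy Ly6Clo library nearly all of the sum was Klrd1, a natural killer cell receptor gene (126), and the natural killer cell genes Ncr1, Klrb1c, Nkg7 and Gzma were at 0 in all libraries of that group. The same library had the highest summed level of the 6 dendritic cell genes, 1514 normalized counts against 211 to 628 in the other libraries of its group. In the N2ΔMy Sham group Gzma, a granzyme, reached 42 and Ncr1 18 normalized counts. Cd3e, Cd3g, Trac and Trbc2, the T cell receptor genes of the list apart from Cd3d (0 to 4), were at 0 in all libraries. Ccl5 had an r of 0.53 with the sum. Most like Ccl5 were Nav1 (r = 0.805), Nedd4l (0.785) and Lpin1 (0.767), and those most like Ccl4 were Dguok (0.731), Hps4 (0.700) and RP23-47P18.9 (0.696). T and NK cells were gated out by surface markers, and their part and that of dendritic cells in the Ccl5 values was not tested.

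Cxcl2, a Cxcr2 ligand that attracts neutrophils, depended on the library series. In wt Ly6Chi cells it measured 0, 2, 0 and 0 normalized counts in Sham and 0, 0, 60 and 32 in IMQ mice. In N2ΔMy Ly6Chi cells it measured 0, 4, 4 and 0 in Sham and 0, 0, 25 and 89 in IMQ mice. In Ly6Clo cells it measured 0, 0, 1 and 3 in wt and 1, 0, 16 and 173 in N2ΔMy mice. All 6 libraries with 16 or more belonged to the second series, while the IMQ libraries of the first series held at most 1 normalized count.

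Over all libraries the IMQ differences of Cxcl2 in Ly6Chi cells were 2.35 in wt (SE 1.39) and 1.64 in N2ΔMy mice (SE 1.47) on the log2 scale, sizes that depend on the 1 added to each value. Within the second series they were 5.49 and 4.44, and within the first series -0.79 and -1.16. Cxcl2 passed the filter only through IMQ libraries of the second series, where it was high, so no test of these differences is given. The summed level of 12 immediate early genes was higher in the second series of the IMQ groups, also where Cxcl2 stayed low. It was 6670 to 7202 normalized counts in the first and 18060 to 18471 in the second series of wt Ly6Chi IMQ cells, and 8422 to 10041 and 17836 to 18807 in N2ΔMy Ly6Chi IMQ cells. In wt Sham cells this sum was 13032 to 22037 in the first and 14100 to 22556 in the second series, where Cxcl2 was at 0 to 2. In wt Ly6Clo cells the sum was 6724 to 6820 in the first and 13806 to 18366 in the second series, while Cxcl2 stayed at 0 to 3. In N2ΔMy Ly6Clo cells, which held the highest Cxcl2 value, the sum was 11587 to 13732 in the first and 15736 to 18865 in the second series. Zfp36, which encodes an mRNA decay factor, had means of 1901 and 5353.5 in the first and second series of wt Ly6Chi IMQ cells. The part of cell handling or of immediate early genes in the Cxcl2 values was not tested. The genes most like Cxcl2 were Cir1 (r = 0.788), Timm17b (0.755) and Gm24305 (0.753). Cxcl2 shared 4.57% of its read-length windows with Cxcl3, which was at 0 in all libraries.

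**Figure D4:**
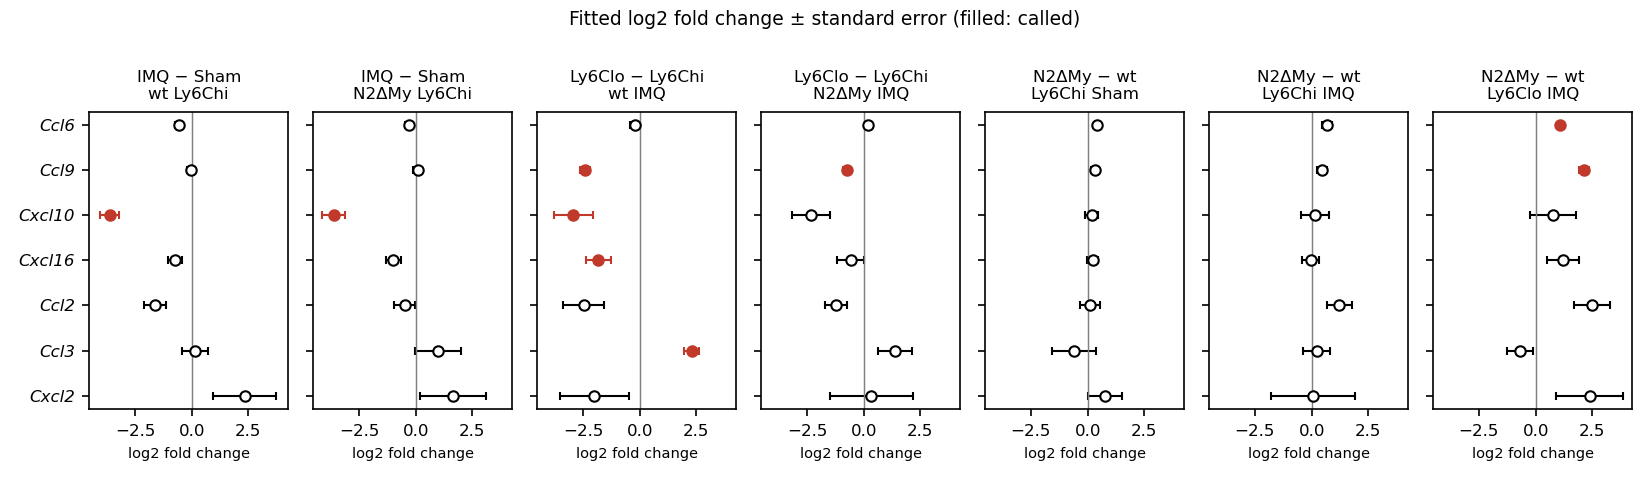
Log2 differences of the 7 tested members in the 7 comparisons of 2 groups, on the log2(value + 1) scale, with standard errors as bars and called differences filled. Cxcl10 lies near -3.6 under IMQ in both genotypes, and Ccl9 and Ccl6 are the called genotype differences, at 2.13 and 1.08 in Ly6Clo cells.

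Ccr1 and Ccr2, receptors of the member ligands, passed the filter, and both were higher in N2ΔMy than in wt Ly6Clo cells. Ccr2, the receptor of Ccl2, had means of 589 and 5708 normalized counts in wt and N2ΔMy cells (log2 difference 3.44, adjusted p = 0.0003), and Ccr1, the receptor of Ccl6 and Ccl9, had 7.0 and 62.0 (3.30, adjusted p = 0.0077). Both genotype differences were larger in Ly6Clo than in Ly6Chi cells by the interaction (Ccr2 2.94 with adjusted p = 0.0006, Ccr1 2.74 with adjusted p = 0.0468).

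Both receptors were lower in Ly6Clo than in Ly6Chi cells of IMQ mice, with log2 differences of -6.08 for Ccr1 and -4.67 for Ccr2 in wt and of -3.34 and -1.73 in N2ΔMy mice. Under IMQ, Ccr1 rose by 1.17 in wt (adjusted p = 0.0120) and 1.43 in N2ΔMy Ly6Chi cells (adjusted p = 0.0002). Ccr2 is itself 1 of the 4 Ly6Chi marker genes. Cxcr3, the receptor of Cxcl10, had means of 1.25 to 12.75 normalized counts and Cxcr6, the receptor of Cxcl16, of 0 to 1.25, both under the filter.

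Of 29 further chemokine ligand genes, 4 passed the filter (Ccl25, Cxcl14, Pf4 and Ppbp). Ccl25, known as a thymic and intestinal ligand, had means of 187.5 to 251 normalized counts and was not called. Cxcl14, a CXC chemokine of epithelia and some myeloid cells, was at 0 in all 8 Sham libraries and at 0 to 3 in Ly6Chi IMQ libraries, against 5 to 32 in wt and 5 to 55 in N2ΔMy Ly6Clo libraries. It passed the filter through 1 N2ΔMy Ly6Clo library, a group in which it was high, so no test of it is given. Ppbp, a platelet chemokine, measured 0 to 4 normalized counts in Sham and 10 to 27 in IMQ Ly6Chi libraries of N2ΔMy mice. It was called higher (log2 difference 2.79, adjusted p = 0.0150, limma), as were 4.15% of all genes tested. In wt Ly6Chi cells it measured 4 to 11 in Sham and 14 to 41 in IMQ libraries and was not called. The summed level of 8 platelet marker genes, Ppbp among them, was 32 to 75 in N2ΔMy Sham and 91 to 182 in N2ΔMy IMQ libraries. In wt Ly6Chi cells this sum was 44 to 103 in Sham and 72 to 189 in IMQ libraries. The part of platelets in these differences was not tested.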

How the data were processed

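RNA of FACS-sorted blood monocytes was sequenced with a stranded kit as single reads of 75 bases. Per the labels and the methods of the study, the authors trimmed reads with Trim Galore 0.4.4, aligned them with STAR 2.5.3a to GRCm38.p6 (GENCODE annotation) and normalized gene counts with DESeq2. Whether counting used the strand was not given in the sources used here. The deposited values are score values: normalized counts that the authors rounded to whole numbers, so no count model was used. The deposited table also holds gene length, a signal column of base means, which was checked against the libraries, and the authors' log2 fold changes, errors, Wald statistics and p-values, which were not used.

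The value of 1 read, taken from the steps between low values, was 0.73 to 1.41 normalized counts, which gave a median of 14977624 reads per library. Levels below about 5 normalized counts rest on a few reads.

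Genes with at least 50 in at least 1 library (11230 of 53715) were fitted as log2(value + 1) with limma 3.58.1 in R 4.3.3 (eBayes with trend), 2 groups at a time, with Benjamini-Hochberg adjustment over all genes tested. The limits for a call were 0.05 on the adjusted p and 0.6 on the size of the log2 difference, and 0.01 on the adjusted p of the F-test over 6 groups. Interactions used the 16 libraries of 4 groups. Ccl4, which was not tested, was compared by a two-sided exact permutation test. The series has 4 biological replicates per group.

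In each of the 7 comparisons same-numbered libraries deviated together (lowest correlation of their deviations 0.16 to 0.45), so the replicate numbers of the labels were taken to pair the libraries, and blocked values are given where they change a call. Within a library series the correlation averaged 0.011 and -0.011 in the IMQ comparisons of wt and N2ΔMy cells, so there little deviation was shared by number beyond that of the series. Alternatives were other scalings, filters and pseudocounts (10, or values under 1.1 set to 1.1), no trend, the replicate block, the library series, all 24 libraries in 1 fit and each library left out. The scripts were tested on simulated data.

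The text names the 9 members, up to 4 called genes per list and comparison, a short set of regulators and receptors, and the 3 genes with the highest Pearson r to a member. Further genes outside this rule (C1qb, Mertk, Ly6g, Camp, Cxcr2, Csf3r, the T and NK cell genes, Cxcl9, Cxcr6, Art3, Ccl25, Tnfaip3 and genes that overlap members) were chosen after their values were seen. The members, gene lists and marker lists were chosen with earlier results of these data known. Windows of read length shared with other genes were counted in GENCODE transcripts of the same build. Promoters came from a RefSeq table of 32851 windows, which matched 5 of the 9 members (not Ccl2, Ccl4, Ccl5 and Cxcl16). Python 3.11.15 with pandas 2.3.3, numpy 2.4.6 and matplotlib 3.10.9 was used. Some genes of the lists are not reported here.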

Additional observations from a re-analysis of the deposited data

Results flagged for a closer look

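In 54 sets of 4 libraries (9 members in 6 groups), 6 held a library set apart from the other 3 beyond the 95% critical value of Dixon's test, and chance flags about 1 set in 20. The highest Ccl2 value of wt Ly6Clo cells was 11 normalized counts, against 0, 1 and 1. The lowest Ccl4 value of N2ΔMy Ly6Clo cells was 2 normalized counts, against 18, 19 and 19. Ccl5 reached 9 in 1 library of N2ΔMy Ly6Chi IMQ cells and was at 0 in the other 3. Cxcl2 was at 2 in 1 library of wt Sham cells and at 0 in the other 3, and its highest value in N2ΔMy Ly6Clo cells was 173, against 0, 1 and 16. The lowest Ccl6 value of N2ΔMy Sham Ly6Chi cells was 13233 normalized counts, against 15815 to 16083.

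The genotype difference of Ccl9 in IMQ mice differed between the subsets, with an interaction of 1.67 on the log2 scale (SE 0.31, adjusted p = 0.0125, limma). Its genotype difference was 2.13 in Ly6Clo and 0.46 in Ly6Chi cells, where the summed level of the 4 Ly6Chi marker genes also differed between genotypes in Ly6Clo cells (404 to 1442 in wt and 5927 to 8471 in N2ΔMy libraries). The part of these genes in the interaction was not tested.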

How the results depend on the processing

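Levels under about 5 normalized counts and differences between groups of 4 limit what the values of Cxcl2, Ccl4, Ccl5 and Ccl2 can show, and within a library series only 2 libraries stand against 2. Of 430 values of 36 log2 differences of members under 12 alternatives, 385 kept direction and call, 31 passed newly, 7 no longer passed and 7 turned direction. With 1 library left out, 299 of 312 kept both. The causes were not tested.

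The members called under IMQ in wt Ly6Chi cells (main count 1) were 2 with a pseudocount of 10, with the replicate block, with the library series as a covariate, and in either series alone. Within the second series the added member was Cxcl2, which passed the filter only through its high libraries. Genes called there (1066) were 592 within the second series. Under IMQ in N2ΔMy Ly6Chi cells 2 members (main count 1) were called with the series as a covariate and within the second series, the latter again through Cxcl2. Between the subsets of N2ΔMy mice (main count 1) 0 members were called without a filter, 2 without trend, 3 with the replicate block, 4 with the series as a covariate, 4 within the second series and 2 with all 24 libraries in 1 fit. Between genotypes in Ly6Clo cells 4 members (main count 2) were called within the first series, and genes called (537) were 215 without a filter, 939 with the replicate block, 830 with the series as a covariate and 180 within the second series. Between genotypes in Ly6Chi IMQ cells 1 member (main count 0) was called with the block and 1 with the series as a covariate, and genes called (3) were 8 without a filter, 0 without trend, 54 with the block, 29 with the series, 1 within the second series and 15 with all 24 libraries in 1 fit. Between genotypes in Sham cells genes called (2) were 7 without a filter and 1 with upper-quartile scaling, equal-sum scaling, values under 1.1 set to 1.1, without trend and in either series alone. For the interaction of genotype and subset 0 members (main count 1) were called without a filter, and genes called (116) were 271 with the replicate block, 210 with the series and 18 within the second series. For that of genotype and treatment 1 gene (main count 0) was called without a filter. The replicate block changed no call of a member other than those given with the results.

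Within the second series the log2 difference was 0.35 for Ccl2 under IMQ in N2ΔMy, 0.59 for Ccl3 between genotypes in Ly6Clo, -0.20 for Ccl6 and 0.12 for Cxcl16 between the subsets of N2ΔMy mice, and 0.00035 for Ccl9 under IMQ in wt, each opposite to all libraries together. Within the first series it was -0.79 (wt) and -1.16 (N2ΔMy) for Cxcl2 under IMQ.

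Leaving out each library in turn gave 1 to 2 members called under IMQ in wt, 2 to 5 between the subsets in wt, and 0 to 4, 1 to 2 and 75 to 173 genes called between genotypes in Ly6Chi IMQ cells, in Sham cells and for the interaction of genotype and subset. Ccl9 under IMQ in wt ranged from -0.18 to 0.090. The 2 members between the subsets were left without replicate 1 of wt Ly6Clo, and the 5 without replicate 4 of wt Ly6Clo.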

Other observations

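Of 12 cytokines of a serum panel, 2 passed the filter on low values, and both were higher in Ly6Clo than in Ly6Chi cells of IMQ mice in both genotypes, where 24.6% of all genes tested were called in wt (11.9% higher) and 17.4% in N2ΔMy mice. Il1b, the precursor of a major fever-inducing cytokine, had means of 273.75 normalized counts in wt Ly6Chi and 3259 in wt Ly6Clo cells (log2 difference 3.77), and of 274 and 2143 in N2ΔMy cells (3.02). Tnf had means of 95.75 and 347 in wt (1.79, adjusted p = 0.0005, limma) and of 76 and 170.5 in N2ΔMy cells (1.2, adjusted p = 0.0062). Between genotypes in Ly6Clo cells Tnf differed by -0.95 (adjusted p = 0.0543) and Il1b by -0.58 (adjusted p = 0.0626) on the log2 scale, which did not pass. Il10, which encodes an anti-inflammatory cytokine, was at most 17 normalized counts, and its 2 to 17 in wt Ly6Clo stood against 0 in all wt Ly6Chi libraries.

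Of 7 factors that act on the decay of short-lived mRNAs, 1 rose and 1 fell under IMQ in Ly6Chi cells of each genotype, where 4.43% (wt) and 4.15% (N2ΔMy) of all genes tested were called higher and 5.07% and 4.55% lower. Zfp36l1 rose by 1.72 in wt and 1.79 in N2ΔMy cells, and Zfp36l2 had log2 differences of -0.62 and -0.73. Zfp36, the founding member of that family, had a difference of -0.76 in wt that did not pass (adjusted p = 0.188). Of 9 immediate early genes tested, 2 were called lower under IMQ in wt (log2 differences of -1.61 for Egr1 and -1.12 for Atf3) and 1 lower in N2ΔMy Ly6Chi cells (-0.70 for Atf3), against the same shares of all genes. Ier3 was also called, higher in N2ΔMy IMQ cells, but it passed the filter only through the IMQ Ly6Chi groups, where it was high, so no test of it is given. Atf3 was higher in N2ΔMy than in wt Ly6Clo cells by 1.36 (adjusted p = 0.0010).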
